A study of Mus musculus with 9 samples.

Results

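The acute phase genes Saa3, Lcn2, Hp, Ptx3, Cp, Steap4, Sod2, and Orm1 were followed in lung fibroblasts of aged mice. These 8 genes, of 43346 in the deposited table, were chosen by name as genes that inflamed stromal cells are known to express. The choice was made with earlier results of these data known. Every one of the 8 was present in the table. All mice carried the Col1a1-GFP transgene, in which GFP is driven by the promoter of a collagen I gene, and were labelled as 72 weeks old (18 months in the protocol). Aged sham mice (n = 4) received saline into the trachea and aged bleo mice (n = 5) received bleomycin, a drug that injures the lung and leads to fibrosis. On day 30, GFP+ cells negative for CD45, CD31, and EpCAM were sorted from each lung, and their polyadenylated RNA was sequenced as 1 library per sample. The libraries hold all sorted fibroblasts, so no inflammatory subset was separated, and fewer cells of a type cannot be told apart from less RNA per cell in any value below.

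The acute phase response is the change in secreted proteins that follows injury or infection. Interleukin 1, TNF, interleukin 6, and interleukin 17 act on their receptors, and NF-kappaB, C/EBP, and STAT3 factors then switch on acute phase genes in the liver and, for several of them, in stromal cells of other organs. Their products bind bacteria, iron carriers, free hemoglobin, or lipids, or handle iron, copper, and superoxide. Lcn2 and Hp are also stored in granules of neutrophils, and Saa3 is made by macrophages as well, so markers of these cells are given beside the results.

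The libraries were of similar depth, with 49921946 to 62370512 counts in aged sham and 53833507 to 68260600 in aged bleo. Levels are given as CPM, the counts scaled to library size with TMM normalization. A gene without reads could still have been present at up to 3 counts, which is 0.0409 to 0.0605 CPM and covers counting error only. Genes averaging 25 or more counts per library were tested by the quasi-likelihood test of edgeR, and a gene was called differentially expressed at an FDR (Benjamini-Hochberg adjusted p-value) under 0.10 with a fold change over 1.5. By this rule 4022 of 16877 tested genes were called (23.8%), with 2082 (12.3%) higher in aged bleo and 1940 (11.5%) lower. Col1a1, which encodes a collagen I chain and whose promoter drives the reporter, was at 4154 ± 407 CPM in aged sham against 20853 ± 4970.3 CPM in aged bleo (SD, n = 4 and n = 5). Of 12 fibroblast markers, 5 were called higher (Col1a1, Col1a2, Col3a1, Pdgfrb, and Npnt) and 5 lower, namely Dcn (log2 fold change -1.54), Pi16 (-1.51), Cd34 (-1.48), Dpt (-1.45), and Tcf21 (-1.10). Epcam was at 0.409 to 1.20 CPM and Pecam1 at 2.44 to 6.70 CPM over all libraries, but not every marker of the cells that the sort removed was low. The summed level of 6 endothelial markers was 159 to 193 CPM in aged sham and 22.8 to 66.0 CPM in aged bleo, most of it from Tek (161 ± 12.9 against 28.9 ± 18.8 CPM, log2 fold change -2.48, FDR 0.00425). The summed level of 12 epithelial markers overlapped between the groups (21.9 to 120 CPM in aged sham, 24.0 to 68.6 CPM in aged bleo), with Sftpc at up to 57.9 CPM and Ager lower in aged bleo (19.8 ± 11.6 against 1.98 ± 0.535 CPM, log2 fold change -3.32, FDR 0.000999). The part of these shifts in the results for the members was not tested. Ptprc, which encodes CD45, was at 30.6 to 183 CPM, so RNA of this leukocyte gene was counted in every library.

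Among the 7 acute phase genes that were tested, 4 were called higher in aged bleo (Saa3, Lcn2, Hp, and Cp) and 1 was called lower (Ptx3), beside 12.3% and 11.5% of all tested genes. Steap4 and Sod2 were not called, and Orm1 had too few counts for the test. The values of Saa3, Cp, and Orm1 did not overlap between the groups and were higher in aged bleo, and those of Ptx3 did not overlap and were lower. Of all tested genes, which do not include Orm1, 16.1% had no overlap with higher values in aged bleo and 16.1% with lower values. The median log2 fold change was 0.74 over the 7 tested members and 0.0064 over all tested genes. Since the members were chosen with earlier results known, these counts and medians are a description.

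**Figure D1:**
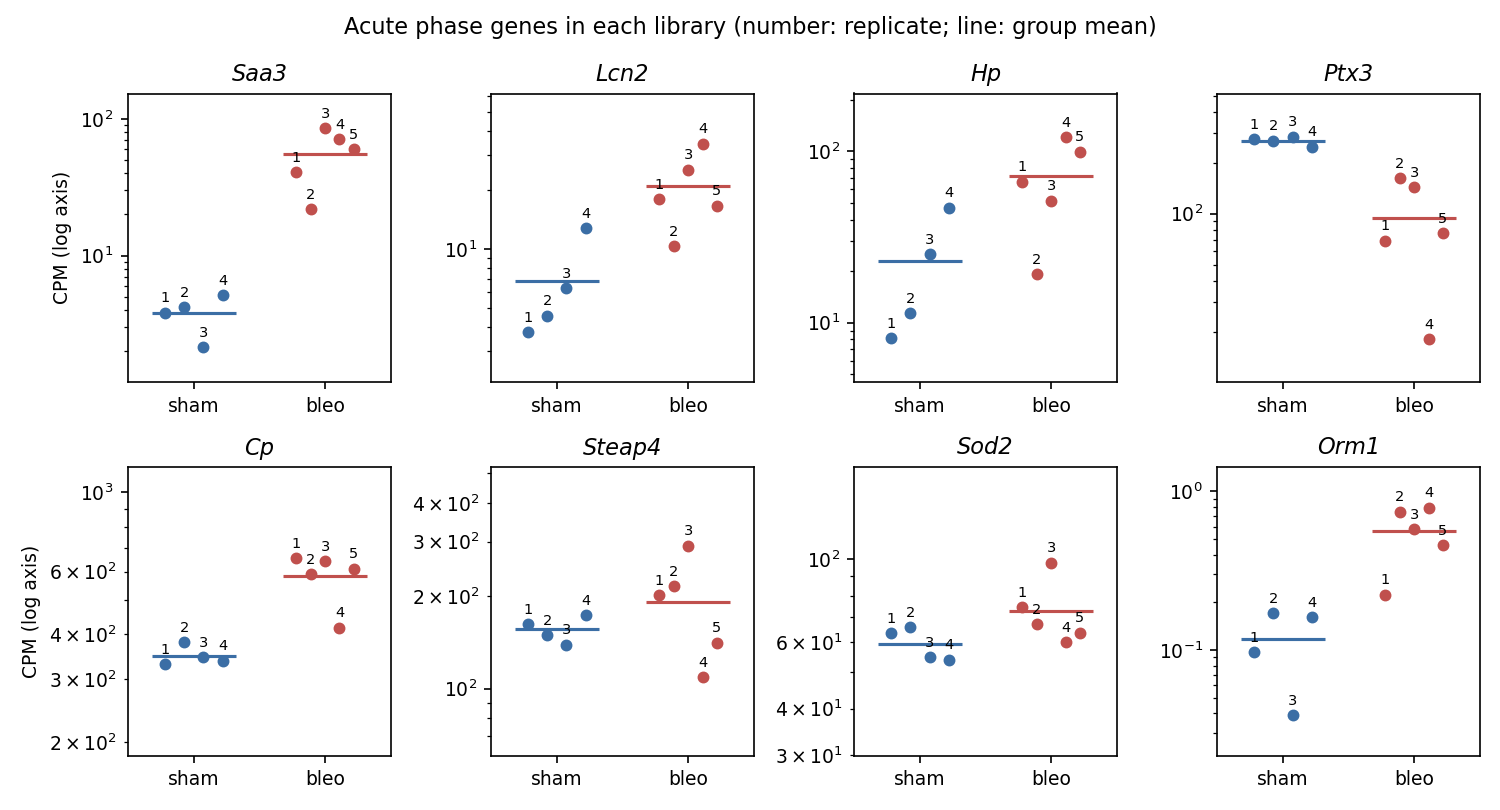
CPM (log axis) of each of the 8 acute phase genes in every library, with aged sham in blue, aged bleo in red, replicate numbers above the points, and horizontal lines at the group means. All 5 aged bleo libraries lie above all 4 aged sham libraries for Saa3, Cp, and Orm1 and below them for Ptx3, and aged bleo 4 is the lowest aged bleo library for Ptx3, Cp, Steap4, and Sod2.

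Saa3 showed the largest change of the members. It encodes serum amyloid A3, a lipid-binding acute phase protein made mainly outside the liver. Saa3 (ENSMUSG00000040026, GRCm38 chromosome 7, 46711998 to 46715676) was at 3.81, 4.17, 2.12, and 5.12 CPM in aged sham 1 to 4 and at 40.7, 21.8, 85.7, 71.1, and 60.1 CPM in aged bleo 1 to 5. The lowest aged bleo library was thus above the highest aged sham library, and the aged bleo libraries spread over 3.93-fold from lowest to highest. The means were 3.81 ± 1.25 CPM in aged sham (SD, n = 4) against 55.8 ± 25.1 CPM in aged bleo (SD, n = 5). The log2 fold change was 3.87 (standard error, SE, 0.44, 95% interval 2.89 to 4.86, FDR 3.41e-04 by edgeR), a 14.7-fold difference. Aged bleo 3, which was highest for Saa3, was also highest for the summed level of 6 mesothelial markers, at 126 CPM against 54.8, 49.1, 35.4, and 63.5 CPM in aged bleo 1, 2, 4, and 5 and 28.6 to 83.9 CPM in aged sham. The part of these cells in the level of Saa3 was not tested. Leaving out any single library kept the log2 fold change of Saa3 between 3.67 and 4.08.

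The other serum amyloid genes were near the limit of detection. Saa1 had 0, 2, 0, and 0 counts in aged sham 1 to 4 and 20, 11, 38, 40, and 16 counts in aged bleo 1 to 5. Saa2 had 0 counts in every aged sham library and 5 to 26 in aged bleo, and Saa4 likewise had 0 counts in aged sham and 22 to 71 in aged bleo. All 3 were thus counted almost only in aged bleo, at levels far under those of Saa3. The coding sequence of Saa3 was 75.9% identical to that of Saa1, 74.9% to that of Saa2, and 63.5% to that of Saa4 in GENCODE M21. How the counting treated reads shared by such genes is not stated.

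Lcn2 and Hp rose to a similar extent but with wide spread inside both groups. Lcn2 encodes lipocalin 2, which withholds iron from bacteria by binding their siderophores. Lcn2 (ENSMUSG00000026822, chromosome 2, 32384633 to 32388252) was at 3.76, 4.57, 6.29, and 12.7 CPM in aged sham 1 to 4 and at 17.9, 10.3, 25.3, 34.4, and 16.6 CPM in aged bleo 1 to 5. Aged sham 4 was above aged bleo 2, so the groups overlapped in these libraries alone. The means were 6.83 ± 4.05 CPM in aged sham against 20.9 ± 9.24 CPM in aged bleo (log2 fold change 1.62, SE 0.44, 95% interval 0.64 to 2.59, FDR 0.0194).

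Hp encodes haptoglobin, which binds free hemoglobin. Hp (ENSMUSG00000031722, chromosome 8, 109575130 to 109579172) was at 8.09, 11.4, 25.03, and 47.0 CPM in aged sham 1 to 4 and at 66.7, 19.2, 51.7, 121, and 99.7 CPM in aged bleo 1 to 5. Aged sham 3 and 4 were above aged bleo 2, and within aged sham the highest library was 5.81 times the lowest. The means were 22.9 ± 17.7 CPM in aged sham against 71.7 ± 40.0 CPM in aged bleo (log2 fold change 1.65, SE 0.62, 95% interval 0.25 to 3.05, FDR 0.0658). The call of Hp was lost when aged sham 1 (log2 fold change 1.37, FDR 0.135), aged sham 2 (1.42, FDR 0.152), aged sham 3 (1.704, FDR 0.124), aged bleo 4 (1.37, FDR 0.118), or aged bleo 5 (1.503, FDR 0.127) was left out.

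Aged sham 4 and aged bleo 4 were the highest libraries of their groups for both genes, and they were also the highest for neutrophil markers. The summed level of 11 neutrophil markers was 172, 234, 461, and 1039 CPM in aged sham 1 to 4 and 149, 115, 155, 970, and 101 CPM in aged bleo 1 to 5. S100a8 and S100a9, which encode the calprotectin subunits of granulocytes, reached 97.1 and 349 CPM in aged sham 4 and 114 and 359 CPM in aged bleo 4. Ly6g was far lower but highest in the same libraries, at 1.01 CPM in aged sham 4 (0.145 to 0.370 CPM in the other aged sham libraries) and 1.12 CPM in aged bleo 4 (0.0930 to 0.224 CPM in the other aged bleo libraries). None of the 10 tested neutrophil genes was called in either direction by edgeR, DESeq2, or limma-trend, and 0 had an unadjusted p under 0.05. Without aged sham 4 and aged bleo 4, an alternative chosen after seeing the data, the log2 fold change was 1.83 for Lcn2 (FDR 0.00652) and 1.99 for Hp (FDR 0.0427).

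Some macrophage markers moved with the groups. The summed level of 11 macrophage markers was 184, 254, 219, and 336 CPM in aged sham 1 to 4 and 535, 764, 642, 1777, and 989 CPM in aged bleo 1 to 5, without overlap. Of the 11 genes, 5 were called higher in aged bleo and 6 were not called. Among the 5 was Lyz2, which encodes lysozyme (117 CPM in aged sham against 628 CPM in aged bleo, log2 fold change 2.42, FDR 0.00142). Lyz2 made up 373 of the 535 CPM in aged bleo 1 and 162 of the 336 CPM in aged sham 4. The rest of the sum in aged bleo 1 was thus not above that in aged sham 4. In every other aged bleo library the rest was above that of every aged sham library. Cd68 and Chil3, also among the 5, did not overlap between the groups either. Cd68 was at 13.3 ± 1.63 CPM in aged sham against 31.5 ± 11.8 CPM in aged bleo (FDR 0.00502). Chil3 was at 27.2 ± 7.74 CPM in aged sham against 93.9 ± 49.0 CPM in aged bleo (FDR 0.00551). Aged bleo 4 and 5, the libraries with the highest sums, were also the highest for Hp, whereas Saa3 was highest in aged bleo 3. The part of macrophages in the higher levels of Saa3, Lcn2, and Hp was not tested. Hepatocyte markers, by comparison, summed to 0.287 to 0.746 CPM over all libraries, with Alb at 0 to 5 counts per library.

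**Figure D2:**
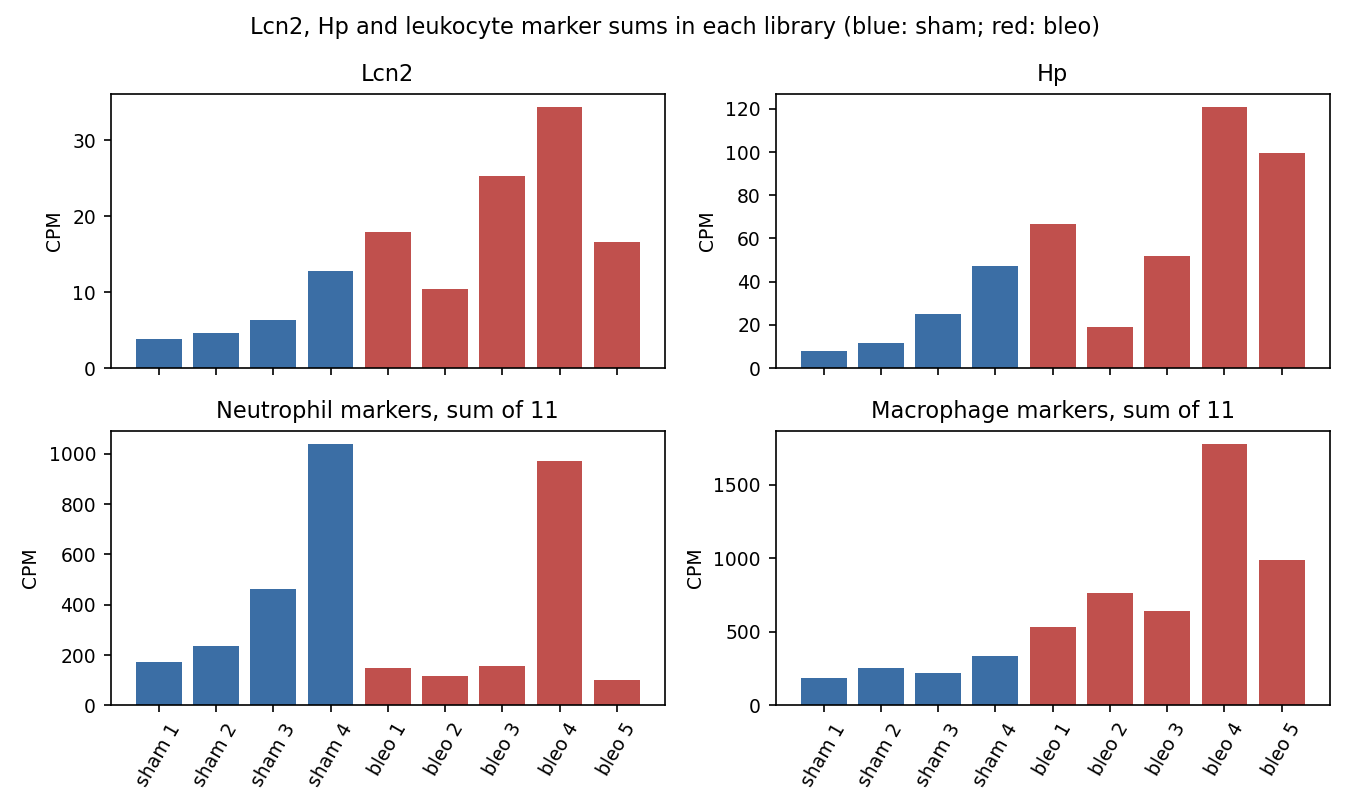
CPM of Lcn2 and Hp (upper row) and summed CPM of 11 neutrophil and 11 macrophage markers (lower row) in each library, as bars from 0, with aged sham in blue and aged bleo in red. The neutrophil sum is highest in aged sham 4 and aged bleo 4, and the macrophage sum is higher in every aged bleo library (535 CPM or more) than in any aged sham library (336 CPM or less). Lyz2 is 373 of the 535 CPM in aged bleo 1 and 162 of the 336 CPM in aged sham 4.

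Ptx3 changed in the opposite direction. It encodes the long pentraxin PTX3, a soluble receptor that binds microbes and cross-links hyaluronan together with the product of Tnfaip6. Ptx3 (ENSMUSG00000027832, chromosome 3, 66219910 to 66225805) was at 276, 271, 285, and 249 CPM in aged sham 1 to 4 and at 69.1, 162, 143, 18.2, and 76.9 CPM in aged bleo 1 to 5. The aged sham libraries lay within 1.15-fold of each other, whereas the aged bleo libraries spread over 8.93-fold, all of them below aged sham. The means were 270.3 ± 15.5 CPM in aged sham against 93.9 ± 58.6 CPM in aged bleo (log2 fold change -1.53, SE 0.49, 95% interval -2.62 to -0.43, FDR 0.0376), a level 2.88-fold lower after bleomycin. Without aged bleo 4, the lowest library, the log2 fold change was -1.27 (FDR 0.00821). Ptx3 lies inside Veph1, a gene of the opposite strand, with which it shares no exon bases.

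Cp encodes ceruloplasmin, a copper enzyme that oxidizes iron for loading onto transferrin. Cp (ENSMUSG00000003617, chromosome 3, 19957054 to 20009145) was at 330, 381, 346, and 338 CPM in aged sham 1 to 4 and at 654, 589, 641, 418, and 611 CPM in aged bleo 1 to 5. All aged bleo libraries were higher than all aged sham libraries, with aged bleo 4 closest to them. The means were 349 ± 22.4 CPM in aged sham against 583 ± 95.2 CPM in aged bleo (log2 fold change 0.74, SE 0.13, 95% interval 0.44 to 1.04, FDR 0.00394), a 1.67-fold difference. Hps3, on the opposite strand, shares 108 exon bases with Cp, and reads from these bases may not be separated because the use of strand in counting is not stated.

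Steap4 and Sod2, which handle metals and superoxide inside the cell, were not called. Steap4, a metalloreductase for iron and copper (ENSMUSG00000012428, chromosome 5, 7960472 to 7982213), was at 162, 149, 139, and 173 CPM in aged sham 1 to 4 and at 201, 215, 291, 109, and 141 CPM in aged bleo 1 to 5. Aged bleo 1 to 3 were thus above every aged sham library, while aged bleo 4 was below every one of them. The log2 fold change was 0.30 (SE 0.25, 95% interval -0.26 to 0.86, FDR 0.381). Sod2, the superoxide dismutase of mitochondria (ENSMUSG00000006818, chromosome 17, 13007839 to 13018119), was at 63.4, 65.9, 54.7, and 53.9 CPM in aged sham 1 to 4 and at 74.5, 67.0, 97.9, 60.2, and 63.6 CPM in aged bleo 1 to 5. Only aged bleo 4 and 5 fell within the aged sham range, and the log2 fold change was 0.29 (SE 0.14, 95% interval -0.04 to 0.61, FDR 0.148). Both intervals include no change and reach beyond a 1.5-fold increase, so these data do not show that the levels were equal.

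Orm1 encodes alpha-1-acid glycoprotein, a carrier of lipids and drugs in plasma. Orm1 (ENSMUSG00000039196, chromosome 4, 63344560 to 63348163) had 6, 10, 2, and 8 counts in aged sham 1 to 4 and 12, 42, 31, 58, and 25 counts in aged bleo 1 to 5. The levels were 0.117 ± 0.0616 CPM in aged sham against 0.560 ± 0.231 CPM in aged bleo, without overlap, 4.78 times as high after bleomycin. Orm1 was left out of the test for its low average count, and a fit without this filter gave a log2 fold change of 2.26 (SE 0.48, FDR 0.00863 over 30563 genes). The value is uncertain, because the coding sequence of Orm1 is 89.9% identical to that of Orm2 and 86.0% to that of Orm3. Orm2 was at 2.08 CPM in aged sham against 1.36 CPM in aged bleo (log2 fold change -0.61, FDR 0.215), but was called lower without aged bleo 4 (-0.97, FDR 0.0262), and Orm3 had 3 to 21 counts per library.

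**Figure D3:**
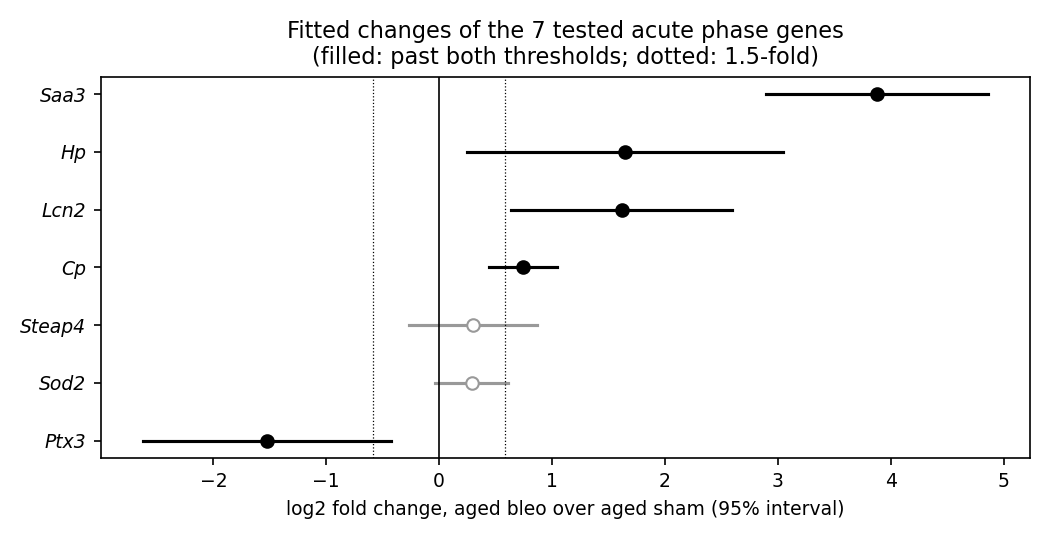
Fitted log2 fold change of aged bleo over aged sham for the 7 tested acute phase genes, as points with 95% intervals, where filled points were called and dotted lines mark a 1.5-fold change. Saa3 lies at 3.87, Hp and Lcn2 at 1.65 and 1.62, Cp at 0.74, and Ptx3 at -1.53, while the intervals of Steap4 and Sod2 include 0.

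Library names carry a final number of unstated meaning. It is 4 in the whole of aged sham and in aged bleo 4, 5 in aged bleo 1 to 3, and 6 in aged bleo 5. With the 5 libraries ending in 4 alone, where the lone aged bleo library is assumed to vary like aged sham, Cp was no longer called (log2 fold change 0.27, FDR 0.0880) and Steap4 turned lower (log2 fold change -0.51, FDR 0.0371). Ptx3 was at a log2 fold change of -3.89 (FDR 2.30e-04), Saa3 at 4.23 (FDR 9.28e-04), Lcn2 at 2.34 (FDR 0.0249), and Hp at 2.41 (FDR 0.0618) in the same fit. The suffix and the treatment cannot be told apart in the other libraries.

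Per length, the order of the members differed between the groups. In FPKM, which the authors scaled to gene length, Ptx3 stood first in aged sham at 42.3, followed by Steap4 at 20.8, Cp at 15.3, Hp at 7.09, Sod2 at 6.53, Saa3 at 2.99, Lcn2 at 1.09, and Orm1 at 0.0632. Neighbors in this order did not overlap, except Hp with Sod2 and Saa3 with Lcn2. In aged bleo, Saa3 stood first at 45.3 FPKM, followed by Cp at 26.1, Steap4 at 26.0, Hp at 23.2, Ptx3 at 14.8, Sod2 at 8.14, Lcn2 at 3.45, and Orm1 at 0.311. Here the ranges of neighbors overlapped from Saa3 down to Sod2, but Saa3, Cp, and Steap4 were each above Sod2 in their whole range (lowest values 17.2, 19.6, and 15.6 FPKM, against a highest value of 10.7 FPKM for Sod2). The FPKM of Ptx3 was 9.63 to 26.7 times that of Saa3 in the aged sham libraries and 0.0507 to 1.48 times in the aged bleo libraries. Aged bleo 2, which had the lowest Saa3 and the highest Ptx3 of its group, was the only injured library with more Ptx3 than Saa3.

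**Figure D4:**
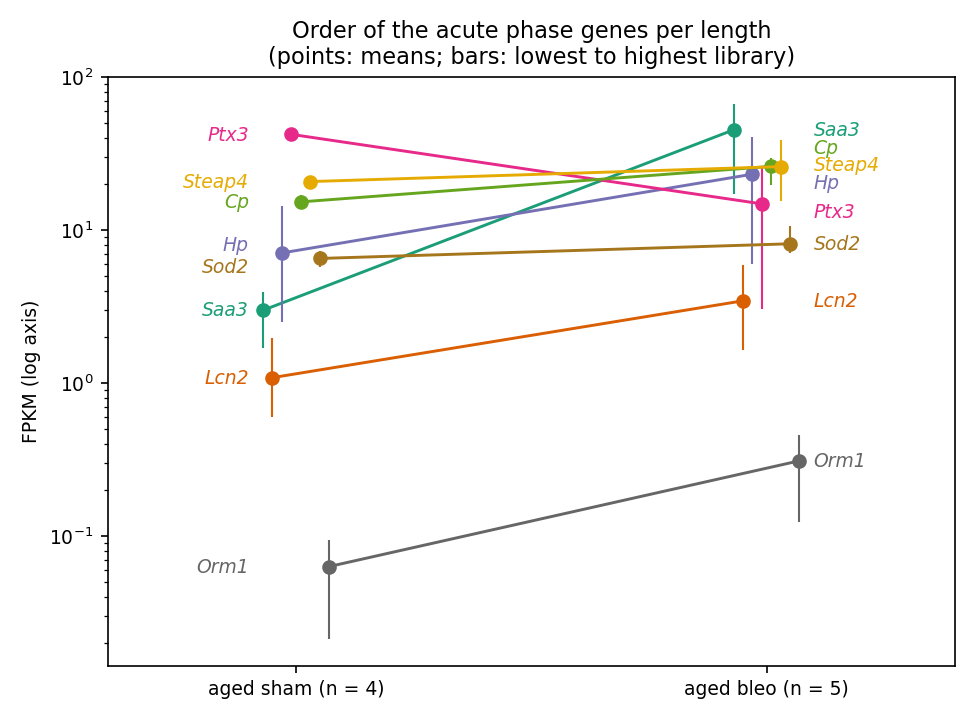
Mean FPKM (log axis) of the 8 acute phase genes in aged sham (left, n = 4) and aged bleo (right, n = 5), with vertical bars from the lowest to the highest library and a line joining the means of each gene. Ptx3 falls from the first place (42.3 FPKM) to the fifth (14.8 FPKM) and Saa3 rises from the sixth (2.99 FPKM) to the first (45.3 FPKM).

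Within the groups, the members fell into different patterns over the libraries. The correlations that follow are of log2 CPM values over 9 libraries after the group means were taken out, and they share library depth and cell makeup. Lcn2 and Hp varied most alike (Pearson r = 0.862), followed by Ptx3 and Steap4 (0.828), Ptx3 and Cp (0.800), and Steap4 and Sod2 (0.774). Aged bleo 4 was the lowest aged bleo library for both Ptx3 (18.2 CPM) and Cp (418 CPM). Of the other aged bleo libraries, aged bleo 2 had the most Ptx3 and the least Cp (162 and 589 CPM). Aged bleo 1 had the least Ptx3 and the most Cp of them (69.1 and 654 CPM). Aged bleo 3 was above aged bleo 5 for both genes. The part of aged bleo 4 in the value of 0.800 was not tested. Hp and Ptx3 varied in opposite ways (-0.590), and Saa3 was nearest to Lcn2 (0.627). Of all tested genes, the closest to Hp were 3110040N11Rik (0.984) and Slc40a1 (0.981), which encodes the iron exporter ferroportin. Those closest to Lcn2 were E2f2 (0.958) and Prr5l (0.949), and those closest to Saa3 were Unc13c (0.960) and Gm4673 (0.956). Ptx3 was most like Slfn5os (0.983) and Creb3l2 (0.983), and Cp most like AI597479 (0.991) and Armcx1 (0.966). For Steap4 these were Gm19412 (0.981) and Cep120 (0.976), and for Sod2 they were Tmem39b (0.993) and Myl6b (0.981). With 16877 genes compared over so few libraries, values of this size are a description only.

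Promoters of the members are shown because the factors that drive the acute phase response act on them. RefSeq promoter windows (GRCm38.p6, 250 bases before to 50 after a start site) were found for 6 of the 8 members, all but Hp and Orm1. Both strands were searched for the NF-kappaB motif, for the C/EBP motif TTGCNNAA, for the STAT motif TTCNNNGAA, and for TATAAA. These were present in 8.46%, 10.8%, 8.30%, and 13.6% of all 32851 windows. A C/EBP match was found in Saa3, Lcn2, Ptx3, Steap4, and a window of Cp, an NF-kappaB match in Ptx3, Steap4, and Sod2, and a STAT match in Steap4 and Sod2. The windows of 4 members follow, 5′ to 3′ on the strand of the gene, with all matches in capitals. Saa3 and Lcn2 were higher, Ptx3 was lower, and Steap4 was not called, yet each of these windows holds a C/EBP match. They lie at chr7:46715627-46715926 (minus strand) for Saa3, chr2:32387690-32387989 (minus) for Lcn2, chr3:66219637-66219936 (plus) for Ptx3, and chr5:7960222-7960521 (plus) for Steap4. The Lcn2 window lies inside the gene bounds given above, since RefSeq starts the transcript there.
Saa3 promoter: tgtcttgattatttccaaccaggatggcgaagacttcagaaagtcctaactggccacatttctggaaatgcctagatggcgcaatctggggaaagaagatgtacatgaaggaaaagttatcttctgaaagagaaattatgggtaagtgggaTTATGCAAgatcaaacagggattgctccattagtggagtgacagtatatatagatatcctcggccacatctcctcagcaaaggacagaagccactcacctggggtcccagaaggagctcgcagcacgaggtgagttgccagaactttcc
Lcn2 promoter: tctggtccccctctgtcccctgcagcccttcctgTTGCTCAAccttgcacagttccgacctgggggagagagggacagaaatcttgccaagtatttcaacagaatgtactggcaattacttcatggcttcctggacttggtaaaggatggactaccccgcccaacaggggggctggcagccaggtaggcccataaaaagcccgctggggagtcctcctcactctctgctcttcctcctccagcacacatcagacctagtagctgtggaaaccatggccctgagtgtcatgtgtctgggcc
Ptx3 promoter: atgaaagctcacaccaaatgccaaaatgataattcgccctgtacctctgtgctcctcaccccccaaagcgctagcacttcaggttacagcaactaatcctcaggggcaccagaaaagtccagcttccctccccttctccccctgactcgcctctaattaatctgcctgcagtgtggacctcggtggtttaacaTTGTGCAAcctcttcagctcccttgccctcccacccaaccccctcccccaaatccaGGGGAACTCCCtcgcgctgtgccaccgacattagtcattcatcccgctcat
Steap4 promoter: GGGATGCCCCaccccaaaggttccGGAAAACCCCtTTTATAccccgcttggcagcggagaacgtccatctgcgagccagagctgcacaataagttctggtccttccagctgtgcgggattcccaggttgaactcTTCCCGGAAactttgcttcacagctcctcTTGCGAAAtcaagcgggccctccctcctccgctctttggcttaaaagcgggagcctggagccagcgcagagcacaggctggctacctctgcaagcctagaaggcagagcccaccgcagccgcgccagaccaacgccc
The C/EBP match began at position -99 in Saa3, -216 in Lcn2, -57 in Ptx3, and -87 in Steap4, counted from the start site at 0. In Ptx3, the capitals at the start site are a pair of overlapping NF-kappaB matches. The capitals of Steap4 are, in order, NF-kappaB, NF-kappaB, TATA, STAT, and C/EBP matches. A match of letters does not show that a factor was bound in these cells.

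Among the other acute phase genes with enough counts for the test, those called were lower. Of a list of 22, 12 were tested, 3 were called lower, and 0 were called higher by edgeR, DESeq2, or limma-trend, with 1 higher at an unadjusted p under 0.05 in edgeR. The median log2 fold change of these 12 was -0.12. Saa1, Saa2, and Saa4 belong to the list but were below the count filter, so the count of 0 does not include them, although none of their aged bleo values overlapped aged sham. Without the filter, 4 genes were called higher, which were these 3 (FDR 0.00123, 0.00436, and 0.00026) and Serpina3n, and 2 lower (Mt1 and Mt2). The metallothioneins Mt1 and Mt2, which bind zinc and copper, had no aged bleo value as high as the lowest aged sham value (log2 fold changes -1.46 and -1.34, FDR 0.00115 and 0.00593). C3, the central complement component and the most abundant gene of the list, was lower too (13571 ± 513 CPM in aged sham, 6956 ± 3659 CPM in aged bleo, log2 fold change -0.96, FDR 0.0881). The call of C3 was lost, with FDR values of 0.110 to 0.161, without any aged sham library, aged bleo 1, or aged bleo 5. Serpina3n, a protease inhibitor, was at 651 ± 58.9 CPM in aged sham against 968 ± 267 CPM in aged bleo, which passed the FDR but not the 1.5-fold threshold (log2 fold change 0.57, FDR 0.0427). Without aged bleo 4, Serpina3n (0.67), Itih3 (0.69), Lbp (0.60), and Serpina3m (0.62) were called higher, 4 genes in place of 0. A single gene was called higher without aged sham 1 (Serpina3g, 1.995, FDR 0.00244) or without aged sham 3, aged sham 4, aged bleo 2, or aged bleo 3 (Serpina3n, 0.59 to 0.62). The liver genes Apcs and Crp had no counts in any library.

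Among genes that inflamed fibroblasts are known to express, a few were strongly higher and more were lower. Of 20 such genes, 9 were called lower, 3 higher, and 8 were not called, with a median log2 fold change of -0.48. Without aged sham 1, the calls of Il33, Ccl7, and Icam1 were lost and Has2 was called higher, which left 6 lower and 4 higher. The call of Il33 was also lost without aged sham 3 or 4 or aged bleo 3, 4, or 5. That of Ccl7 was also lost without aged bleo 1 or 5, and that of Icam1 without aged sham 2. Without aged bleo 2, 10 were lower, with Csf1 added. Il6, the cytokine that induces acute phase proteins through STAT3, was at 366, 427, 367, and 280 CPM in aged sham 1 to 4 and at 118, 178, 199, 52.7, and 96.1 CPM in aged bleo 1 to 5. Each aged bleo value was thus under the lowest aged sham value (log2 fold change -1.48, FDR 0.0101). The eosinophil chemokine Ccl11 and the hyaluronan synthase Has1 were the furthest down (log2 fold changes -1.79 and -1.71, FDR 0.0126 and 0.0209). Tnfaip6, the partner of Ptx3 in hyaluronan matrix, fell by 1.60 on the log2 scale (FDR 0.0109). Il11 (log2 fold change 4.52, FDR 1.05e-04) and Cxcl5 (2.39, FDR 0.0486) were the furthest up. Il11 was at 1.18 ± 0.241 CPM in aged sham against 27.0 ± 11.3 CPM in aged bleo, without overlap. The call of Cxcl5 was lost without aged sham 2, 3, or 4 (FDR 0.114 to 0.116). It was also lost with replicate numbers as a block (FDR 0.119). DESeq2 gave Cxcl5 no FDR, so it was not called there.

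The inducing cytokines were unevenly changed. Of 11 genes, 9 were tested, of which 3 were higher (Il17a, Lif, and Il1a) and 1 was lower (Il6). Il1b, a known inducer of Saa3 and Lcn2 in stromal cells, was at 105, 125, 258, and 544 CPM in aged sham 1 to 4 and at 74.6, 55.5, 105, 368, and 34.3 CPM in aged bleo 1 to 5, highest in the same libraries as the neutrophil markers. It was not called (log2 fold change -1.02, FDR 0.307), but without aged bleo 4 it was called lower (-1.95, FDR 0.0271). Lif, an interleukin 6 family cytokine, was at 44.7 ± 7.20 CPM in aged sham against 200.3 ± 67.7 CPM in aged bleo (log2 fold change 2.16, FDR 2.86e-04). Il17a had 2, 0, 3, and 1 counts in aged sham 1 to 4 and 5, 6, 26, 404, and 24 counts in aged bleo 1 to 5, so 404 of the 465 counts in aged bleo came from aged bleo 4. Without this library Il17a fell under the count threshold and was not tested. DESeq2 gave Il17a no FDR, so it was not called there.

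Receptors and adaptors for these cytokines were lower or not called. Of 17 genes, 4 were lower and 0 higher by edgeR, DESeq2, or limma-trend, with 3 higher at an unadjusted p under 0.05 in edgeR, and the median log2 fold change was -0.30. Myd88, the adaptor of interleukin 1 and Toll-like receptors, was at 125 ± 5.90 CPM in aged sham against 58.7 ± 8.05 CPM in aged bleo (log2 fold change -1.09, FDR 1.33e-04). Il6ra, a receptor chain for interleukin 6, was at 48.3 ± 1.70 CPM in aged sham against 23.1 ± 6.07 CPM in aged bleo (log2 fold change -1.06, FDR 0.00273). Il17ra, also among the 4 lower genes, lost its call without aged sham 4 (-0.55) or aged bleo 5 (-0.52). Without aged bleo 4, Il1r2 was called lower as well (-2.31, FDR 0.00977). Il1rap, a chain of the interleukin 1 receptor, was at 30.4 ± 3.32 CPM in aged sham against 45.2 ± 4.63 CPM in aged bleo, just under the fold threshold (0.57, FDR 0.00321), and it was called higher without aged sham 3, aged sham 4, aged bleo 2, or aged bleo 4 (0.59 to 0.64).

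Downstream of the receptors, 8 factors and feedback genes were lower and 1 was higher. Of 14 NF-kappaB factors, inhibitors, and targets, 3 were lower and 0 higher by edgeR, DESeq2, or limma-trend, with 0 higher at an unadjusted p under 0.05. Nfkbiz, which encodes the IkappaB-zeta cofactor needed for Lcn2 induction, fell by 0.92 on the log2 scale (FDR 0.00263), and Birc3 fell by 0.80 (FDR 0.00909). Without aged sham 1, Traf1 was called higher (0.62, FDR 0.0615), and without aged bleo 3 the number of genes called lower was 5, with Nfkbia and Zc3h12a added. Tnfaip3, which was among the 3 lower genes, lost its call without aged sham 1, aged bleo 1, or aged bleo 5 (-0.56 to -0.49). Of 11 C/EBP and STAT3 genes, 5 were lower and 1 was higher (Hif1a, log2 fold change 0.91, FDR 0.00171). Cebpd, an acute phase C/EBP factor, was at 349, 351, 337, and 445 CPM in aged sham 1 to 4 and at 148, 201, 185, 115, and 72.2 CPM in aged bleo 1 to 5. Every aged bleo library was thus lower (log2 fold change -1.36, FDR 0.00520). Socs3, the feedback inhibitor induced by STAT3, fell by 1.23 (FDR 0.00859), while Cebpb (0.16, FDR 0.592) and Stat3 (0.18, FDR 0.154) were not called. Without aged bleo 5, Pim1 and Socs1 were no longer called, which left 3 lower. The call of Pim1 was also lost without aged sham 4 (-0.57), and that of Socs1 without aged sham 2 (-0.57). In the fit without aged sham 2, Cebpa was called higher too (0.62, FDR 0.00963). The RNA of a factor does not measure its activity.

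Genes of iron, copper, and oxidant handling, the processes of Cp, Steap4, Sod2, Hp, and Lcn2, were changed in both directions. Of 20 tested, 7 were higher and 2 lower, with a median log2 fold change of 0.29. Slc40a1, which exports the iron that ceruloplasmin oxidizes, was at 9.51, 13.3, 17.8, and 31.2 CPM in aged sham 1 to 4 and at 89.0, 52.1, 79.4, 143, and 120.0 CPM in aged bleo 1 to 5. The groups did not overlap (log2 fold change 2.43, FDR 0.00242), and, as for Hp, aged bleo 4 and 5 were highest. Macrophages also express Slc40a1, and the macrophage marker sum was highest in the same libraries. Tfrc, the transferrin receptor, was higher as well (log2 fold change 1.04, FDR 0.0498), as was Heph, a ferroxidase related to ceruloplasmin (0.63, FDR 0.0267). The call of Tfrc was lost without aged sham 2, 3, or 4 or aged bleo 5 (FDR 0.101 to 0.117), and that of Heph without aged sham 3 or aged bleo 2 (0.56 and 0.52). Cd163, the macrophage receptor for hemoglobin bound to haptoglobin, was lower (2.35 CPM in aged sham, 0.823 CPM in aged bleo, log2 fold change -1.50, FDR 0.0634), and so was the ferrireductase Steap3 (-0.97, FDR 0.0226). The call of Cd163 was lost without aged sham 2, 3, or 4 or aged bleo 5 (FDR 0.111 to 0.142). Slc22a17, a receptor for lipocalin 2, was just under the fold threshold (-0.57, FDR 0.0546), and it was called lower without aged sham 1, 3, or 4 or aged bleo 1, 2, or 3 (-0.66 to -0.59). Not called were the superoxide dismutases Sod1 (-0.21, FDR 0.0677) and Sod3 (-0.33, FDR 0.330) and the catalase gene Cat (-0.26, FDR 0.0885). Hmox1 of the same list was called higher (31.6 ± 2.29 CPM in aged sham, 48.8 ± 14.8 CPM in aged bleo, 0.63, FDR 0.0321). Its call was lost without aged sham 2 or aged bleo 5 (0.58 and 0.43). Prdx1 was just under the fold threshold (0.56, FDR 0.0420) and was called higher without aged bleo 1, 2, or 3 (0.60 to 0.65).

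**Figure D5:**
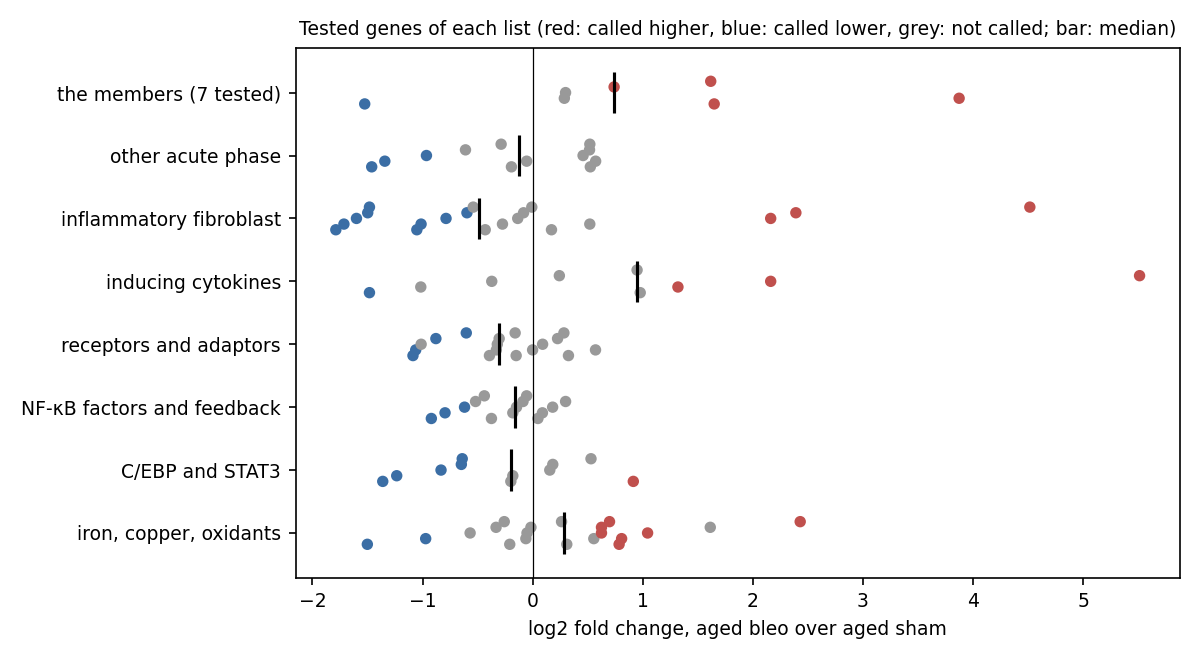
Fitted log2 fold change of every tested gene of the members and of 7 pathway lists, 1 row per list, with called genes in red (higher in aged bleo) or blue (lower), other genes in grey, and a black bar at the median. The medians are 0.74 for the members, -0.12 for other acute phase genes, -0.48 for inflammatory fibroblast genes, 0.95 for inducing cytokines, -0.30 for receptors and adaptors, -0.16 and -0.20 for NF-kappaB and C/EBP with STAT3 genes, and 0.29 for iron, copper, and oxidant genes.

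Counted once each, 39 of the 100 tested genes of these 7 lists were called, beside 23.8% of all tested genes. The lists were put together with earlier results of these libraries known, so their counts are a description.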

How the data were processed

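RNA-Seq libraries of sorted fibroblasts (4 aged sham, 5 aged bleo) were grouped by their sample labels. The submitters' processing notes name bcl2fastq, STAR 2.5.2b, Subread, featureCounts, and the builds mm10 and GRCm38. The authors deposited raw read counts of 43346 genes and FPKM values scaled to gene length. Strand use is not stated. Of 42462 identifiers shared with GENCODE M21, 78.9% have the same start and end. The 8 members and all lists were chosen with earlier results of these data known.

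The test was the quasi-likelihood test of edgeR 4.0.16 (R 4.3.3) on TMM-normalized counts, without covariates, for genes averaging 25 or more counts. The SE is the log2 fold change divided by the square root of the F statistic. CPM are TMM-normalized, and log2 CPM use a prior count of 2. p-values measure the spread between libraries, which the labels number as separate samples. No libraries of a group were duplicates (chi-square per degree of freedom 30.9 to 468). The alternatives were DESeq2 1.42.0, limma 3.58.1 on log2 CPM, log2(FPKM + 0.1), and log2(FPKM + 1), RLE or no normalization, no filter or at least 10 counts in every library, each library left out, a replicate block, libraries whose name ends in 4, and, added after seeing the data, both libraries with the highest neutrophil marker sums left out. The test was tried on simulated data.

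Named in the text are all members, the 2 called genes of each list with the largest fold change in each direction and at least 1 CPM, inducers, receptors, and paralogs by role, and the 2 genes that varied most like each member. Saa4, Tnfaip6, Il1a, Serpina3 genes, Itih3, Lbp, C3, Apcs, Crp, Il1rap, Traf1, Nfkbia, Zc3h12a, Pim1, Socs1, and Cebpa were named after their values were seen. The same holds for Il33, Ccl7, Icam1, Has2, Csf1, Tnf, Tnfaip3, Cd68, Chil3, Il17ra, Il1r2, Hmox1, and Prdx1. Coding sequences for identities came from GENCODE M21 and promoters from RefSeq.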

Additional observations from a re-analysis of the deposited data

Results flagged for a closer look

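Of the 16 groups of CPM values tested (8 members in aged sham and in aged bleo), 1 held an outlying library by Dixon's test. Cp in aged bleo 4 was the lowest of aged bleo at 418 CPM, and its gap to the nearest library was 0.726 of the range of the group. Chance alone flags about 1 in 20 such groups. Aged bleo 4 was also the lowest aged bleo library for Ptx3, Steap4, and Sod2 and the highest for Lcn2, Hp, and Orm1.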

How the results depend on the processing

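Under the 11 alternatives that keep all libraries or leave out named sets of them, Saa3, Lcn2, Hp, and Ptx3 kept their direction and call, with log2 fold changes of 3.42 to 4.23, 1.06 to 2.34, 1.53 to 2.41, and -3.89 to -1.32. Cp kept its call in 10 of them (0.27 to 0.81) and Steap4 its direction in 10 (-0.51 to 0.48). The exception for both was the fit of the libraries whose name ends in 4 alone, where Cp was at 0.27 (FDR 0.0880) and Steap4 was reversed to -0.51 (FDR 0.0371), and 6171 genes were called. The cause was not tested. limma on log2(FPKM + 1) called 1785 genes, of which 1761 were among the 4022, since the added 1 shrinks changes of low genes. Leaving out single libraries, Hp ranged from 1.37 to 2.27 (FDR 0.0242 to 0.152) and was called in 4 of 9 fits, whereas Saa3 (3.67 to 4.08), Lcn2 (1.36 to 2.10), Ptx3 (-1.81 to -1.27), and Cp (0.70 to 0.83) were called in all 9, and Steap4 (0.10 to 0.44) and Sod2 (0.16 to 0.34) in none. The number of genes called ranged from 3525 to 4597 and that of members from 4 to 5. With replicate numbers as a replicate block, 3536 genes and 5 members were called, and no call of a member changed. The labels do not say whether the numbers pair the mice, and aged bleo 5 has no partner. Same-numbered libraries correlated at 0.0922, 0.0623, -0.130, and 0.326 in their deviations from the group means. Differently numbered libraries correlated at -0.213 to 0.252. So few correlations cannot settle whether the mice were paired. Without the filter on low counts, 4 other acute phase genes were called higher (Saa1, Saa2, Saa4, and Serpina3n) and Orm1 joined the members called. Depth limits statements on Orm1 and the low serum amyloid genes, which have at most 71 counts per library.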
